A study of Mus musculus with 10 samples.

Results

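The genes described here encode the machinery that builds ribosomes in the nucleolus. They are 38 named genes, of 18194 measured, listed by symbol: Myc and Mycn, transcription factors that drive ribosome production, and 36 genes for RNA polymerase I, small nucleolar ribonucleoproteins (snoRNPs), nucleolar scaffold proteins and assembly factors of the small and large ribosomal subunits. All 38 had at least 1 probe set with that gene alone in the array annotation, 75 probe sets in all, and each gene was followed through the probe set with the highest mean over the 10 arrays.

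Secondary palate was taken from mouse embryos at E14.5, the stage of palatal shelf fusion, and its RNA was read on Affymetrix arrays with 1 array for each sample. The mutant group had 5 samples of genotype Tgfbr2fl/fl;Wnt1-Cre. There the Cre recombinase is driven by Wnt1 sequences in neural crest cells and removes the floxed type II TGF-beta receptor gene. Cells of the palate from other sources, such as epithelium, skeletal muscle and the endothelium of vessels, should keep the receptor. The control group had 5 samples of genotype Tgfbr2fl/fl, which carry the same floxed alleles with no Cre in the label and are called wildtype in the titles. All are labelled as strain C57B6, with sex not determined. The question of the series is what loss of this receptor changes in the forming palate. The labels do not tie each sample to its own embryo, and p-values therefore cover the spread among these samples, which may be technical.

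A ribosome begins with transcription of ribosomal DNA by RNA polymerase I. The precursor RNA is modified by snoRNPs, folded and cut by large processing complexes in the nucleolus, and joined to ribosomal proteins before both subunits leave for the cytoplasm. Dividing cells make many ribosomes, and Myc proteins raise transcription of much of this machinery. In humans, mutations in genes of RNA polymerase I and of the nucleolar protein treacle cause Treacher Collins syndrome, a disorder of neural crest derived facial structures that can include cleft palate.

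Values are log2 expression as deposited by the authors, in steps of 0.1, and a difference is mutant minus control on that scale. Changed, fell, rose, lower and called refer to an adjusted p under 0.05 in limma fitted over all 18194 genes. The targeted gene Tgfbr2 stood at 10.7, 10.7, 10.8, 10.7 and 10.8 in mutant arrays and 10.5, 10.8, 10.7, 10.6 and 10.7 in control arrays; the place of its probe set in the gene was not known here, so these values do not check the deletion. The 10 palate mesenchyme markers averaged 10.06 to 10.27 in mutant and 10 to 10.31 in control arrays. Of these, 1 was higher (Tbx22, not called without mutant replicate 3) and 1 lower (Barx1). The Barx1 groups meet at 10.3, and leaving out 7 of the 10 arrays, each alone, ended its call. Msx1 had the largest difference of the list, -0.84, and was not called (limma adjusted p = 0.147). An unadjusted p under 0.05 was reached by 4 of the 10, against 25.2% of all genes. Control replicate 1 stood apart, with correlations of 0.985 to 0.989 with the other arrays, against 0.989 to 0.996 among the other 9. In a tissue sample, fewer cells of a type and less RNA per cell cannot be told apart.

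Part of the ribosome biogenesis genes were lower in mutant palate, by small amounts. Of the 38 genes, 10 fell, none rose and 28 were not called. The 10 are 26.3% of the members, against 5.36% of all genes called lower, while 2.9% of all genes were called higher. The members were chosen with earlier results of these data known, so such shares describe them and are not an independent test. Within the brighter 60% of genes, where all 38 members lie, 7.82% were called lower and 2.72% higher. The sizes were 1.165-fold to 1.301-fold, and none reached 1.5-fold. A negative difference was measured for 36 of 38, against 8850 of all 18194 genes and 6430 of the 10922 in the brighter 60%. The median of the members was -0.16, against 0.00 over all genes and -0.04 over the brighter 60%. At an unadjusted p under 0.05 the counts were 20 lower and 1 higher, against 15.1% of all genes lower and 10% higher, and 21.8% of the brighter 60% lower. The mutant arrays all lay below the control arrays for 8 members, against 4.93% of all genes and 7.54% of the brighter 60%. They lay above the control arrays for 0 members, against 1.82% of all genes. No 95% confidence interval of a member reached a 1.5-fold decrease, and that of 1 member, Polr1b, reached a 1.5-fold increase.

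**Figure D1:**
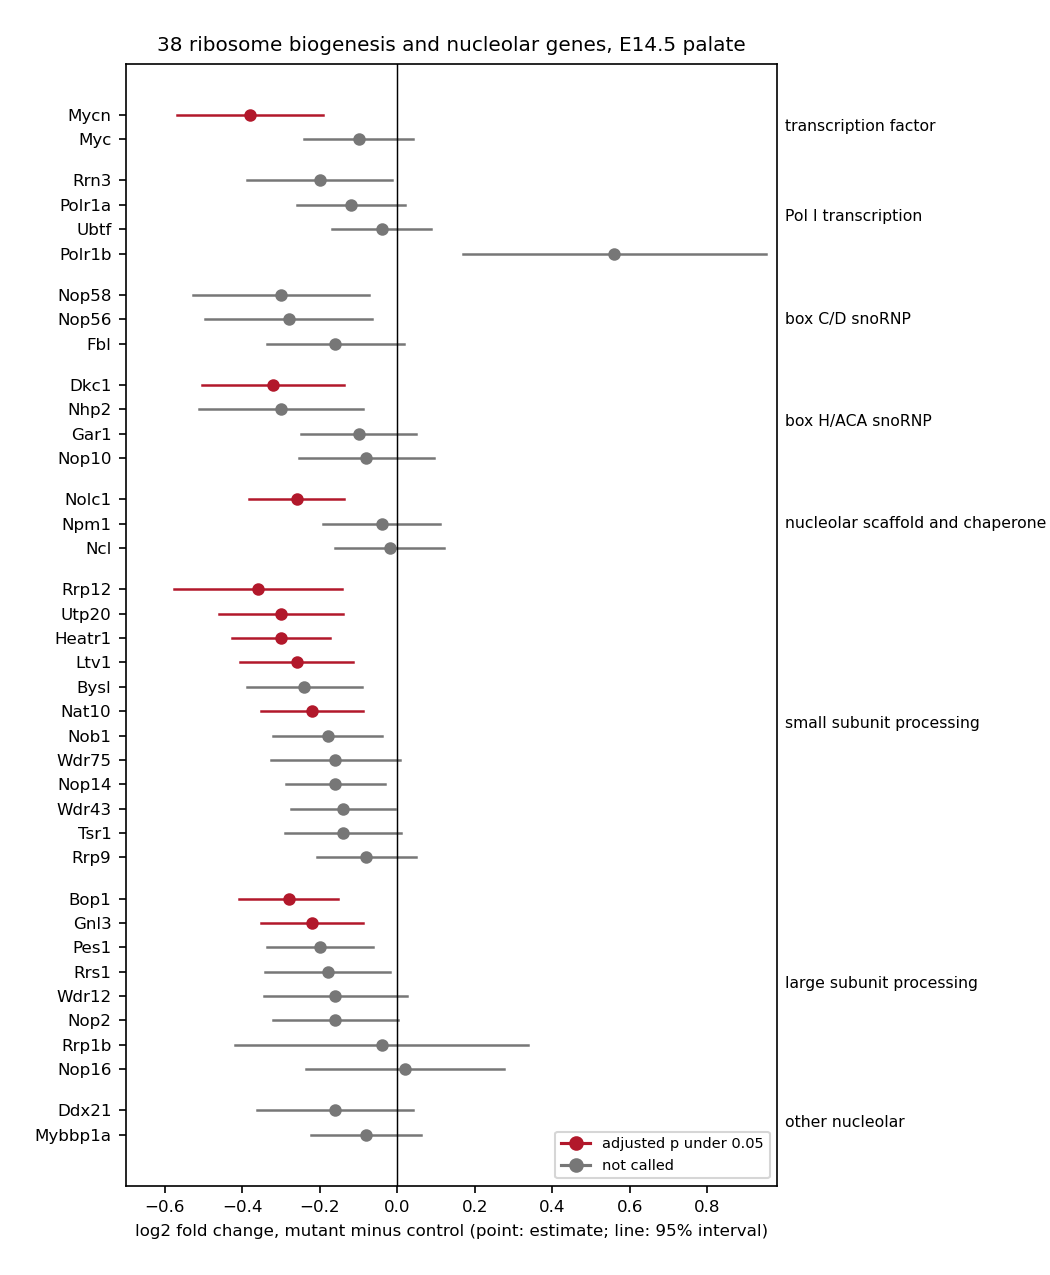
Each point is the log2 difference of a member, mutant minus control, and the line its 95% confidence interval (5 arrays a group), with members grouped by role and changed members in red. All 10 changed members lie between -0.38 and -0.22, and Polr1b at 0.56 is the farthest from 0 and was not called.

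The count changed with the arrays used. It was 4 to 6 without any 1 of the mutant arrays or of control replicates 2 to 5, where 2.51% to 4.4% of all genes were called lower, and 10 without control replicate 1, of which 8 were among the first 10. Without that array 6.08% of all genes were called lower and 3.8% higher. Heatr1, Bop1 and Nolc1 kept their call without each of the 10 arrays in turn. With the level of the Y-linked gene Eif2s3y as a covariate, Mycn, Dkc1 and Heatr1 were the only members called. That fit called 1041 of all genes in either direction, against 1503 without the covariate. Eif2s3y was 9.2, 9.0, 9.3, 9.1 and 5.1 in mutant arrays and 9.1, 3.2, 3.3, 9.0 and 3.2 in control arrays, so its level was not balanced between the groups.

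Of the transcription factors that drive the programme, Mycn fell and Myc was not called. Mycn, the Myc family member used by many embryonic progenitors, had 7.8, 7.7, 7.9, 7.7 and 7.8 in mutant arrays, against 8.4, 8.0, 8.1, 8.3 and 8.0 in control arrays. Every mutant array lay below every control array. The difference was -0.38 (SE 0.09, 1.30-fold lower; limma adjusted p = 0.0232), the largest decrease among the 38, and it was not called without mutant replicate 2 or mutant replicate 4. Its dimmer probe sets gave 0.04 and -0.06, and the mean of its probe sets gave -0.133, which was not called (adjusted p = 0.254). Myc, measured by 1 probe set, had 8.9, 8.7, 8.8, 8.8 and 8.8 in mutant arrays, against 8.9, 9.0, 8.8, 9.0 and 8.8 in control arrays. Those ranges overlap, and the difference was -0.10 (95% confidence interval -0.24 to 0.04, adjusted p = 0.359).

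Among 10 partners and antagonists of Myc, 1 fell and 1 rose (10% each), against 5.36% of all genes lower and 2.9% higher. Mxd3, an antagonist that shares the partner Max and is known from dividing progenitors, had 7.7, 7.7, 7.5, 7.6 and 7.8 in mutant arrays, against 8.4, 8.3, 8.2, 8.3 and 8.2 in control arrays. The groups do not overlap, and the difference was -0.62 (SE 0.07, adjusted p = 0.00101). Mxi1, another antagonist of the same family, had 9.4, 9.4, 9.5, 9.5 and 9.5 in mutant arrays, against 9.3, 9.1, 9.2, 9.2 and 9.2 in control arrays. It was higher by 0.26 (SE 0.06, adjusted p = 0.0189), also without overlap. Its other probe set gave 0.04, and Mxi1 was not called without mutant replicate 3. Max itself had 6.2, 6.2, 6.2, 6.3 and 6.0 in mutant arrays, against 7.3, 6.6, 6.6, 6.2 and 6.3 in control arrays, and was not called.

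None of the 4 members that transcribe ribosomal DNA was called. Polr1a, the largest subunit of RNA polymerase I, differed by -0.12 (95% confidence interval -0.26 to 0.02), with 8.6, 8.6, 8.5, 8.6 and 8.5 in mutant arrays and 8.5, 8.7, 8.8, 8.7 and 8.7 in control arrays. Ubtf, which shapes the chromatin of active ribosomal DNA, differed by -0.04, and Rrn3, which links the polymerase to its promoter, by -0.20 (adjusted p = 0.172). Polr1b, the second largest subunit, went the other way. It had 8.7, 8.8, 8.9, 8.8 and 8.8 in mutant arrays, against 8.1, 7.7, 8.0, 8.9 and 8.5 in control arrays. The spread lay in the controls (SD 0.07 in mutant and 0.47 in control arrays), and the difference of 0.56 (SE 0.18) had an adjusted p of 0.0775. Without control replicate 4, the array at 8.9, the difference was 0.725 and was called. Polr1b has 1 probe set on the array, so no other reading of it was available.

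Other genes of this step did fall. Of 9 measured, 3 were lower and none higher at the adjusted threshold. Polr1e, a subunit of the polymerase with roles in starting and extending transcription, had 7.5, 7.7, 7.7, 7.7 and 7.6 in mutant arrays, against 8.5, 8.0, 8.0, 8.0 and 8.0 in control arrays, a difference of -0.46 (SE 0.10, adjusted p = 0.0189). Polr1c, a subunit shared with RNA polymerase III, had 10.1, 10.2, 10.2, 10.3 and 10.1 in mutant arrays, against 10.4, 10.6, 10.5, 10.5 and 10.4 in control arrays (difference -0.30, adjusted p = 0.0169). Both separate the groups. Tcof1, which encodes treacle, had 8.2, 8.1, 8.0, 7.9 and 8.0 in mutant arrays, against 8.6, 8.2, 8.3, 8.4 and 8.4 in control arrays. The groups meet at 8.2, and the difference was -0.34 (SE 0.08, adjusted p = 0.0296); leaving out 6 of the 10 arrays, each alone, ended this call. Polr1d, the other polymerase subunit long known in Treacher Collins syndrome, differed by -0.12 (95% confidence interval -0.26 to 0.02).

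In the snoRNPs, 1 of 7 members fell, and 5.36% of all genes were called lower. Box C/D particles guide methylation of ribosomal RNA and are built on Fbl, the methyltransferase fibrillarin, with Nop56 and Nop58. Nop56 had 10.3, 10.5, 10.3, 10.1 and 10.3 in mutant arrays, against 10.9, 10.5, 10.5, 10.6 and 10.4 in control arrays, and Nop58 had 9.2, 9.1, 9.1, 9.3 and 9.3 in mutant arrays, against 9.9, 9.3, 9.5, 9.4 and 9.4 in control arrays. In both, control replicate 1 was the highest array, and the differences of -0.28 and -0.30 were not called (adjusted p = 0.103 and 0.0978). A second, dimmer Nop56 probe set fell by 0.38 in the fit over all 34958 probe sets (adjusted p = 0.0229). The mean of both Nop56 probe sets gave -0.33, which was called (limma adjusted p = 0.0305). Fbl had 11.5, 11.6, 11.5, 11.6 and 11.5 in mutant arrays, against 11.4, 11.8, 11.8, 11.7 and 11.8 in control arrays. Control replicate 1 was its lowest array. The difference was -0.16 (adjusted p = 0.244) and, without that array, -0.235 (adjusted p = 0.0199).

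Box H/ACA particles guide pseudouridine formation, and the RNA for their enzyme, dyskerin, fell. Dkc1, the gene of dyskerin, also serves telomerase, and its human counterpart is mutated in dyskeratosis congenita. It had 9.6, 9.7, 9.7, 9.7 and 9.7 in mutant arrays, against 10.3, 9.8, 10, 10 and 9.9 in control arrays. The groups do not overlap, with a difference of -0.32 (SE 0.08, 1.25-fold lower; adjusted p = 0.0378), but leaving out 8 of the 10 arrays, each alone, ended the call. Its other probe sets gave -0.20 and -0.12, and the mean of all gave -0.213 (adjusted p = 0.0756). The 3 other core proteins of the particle were not called: Nhp2 differed by -0.30 (adjusted p = 0.0803), Gar1 by -0.10 and Nop10 by -0.08. Of 8 measured genes that assemble snoRNPs, 1 (12.5%), Znhit3, was lower (-0.38, limma adjusted p = 0.0442), against 5.36% of all genes. Its groups meet at 8.2, and leaving out 8 of the 10 arrays, each alone, ended that call.

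The RNA of the abundant scaffold proteins of the nucleolus was nearly level between the groups. Ncl, encoding nucleolin, had 12.2, 12.3, 12.3, 12.3 and 12.2 in mutant arrays, against 12.1, 12.3, 12.3, 12.4 and 12.3 in control arrays (difference -0.02, 95% confidence interval -0.16 to 0.12). Its 4 other probe sets ran from -0.30 to 0.34, none of them called. Npm1, encoding nucleophosmin, which binds assembling subunits and histones, differed by -0.04 (95% confidence interval -0.19 to 0.11). Nolc1, which chaperones snoRNPs between the nucleolus and Cajal bodies, fell. It had 9.3 in all 5 mutant arrays, against 9.4, 9.6, 9.6, 9.6 and 9.6 in control arrays, so no array of the groups overlapped. The difference was -0.26 (SE 0.06, 1.2-fold lower; adjusted p = 0.0189), with -0.32 for both other probe sets, and the control array closest to the mutants was replicate 1.

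**Figure D2:**
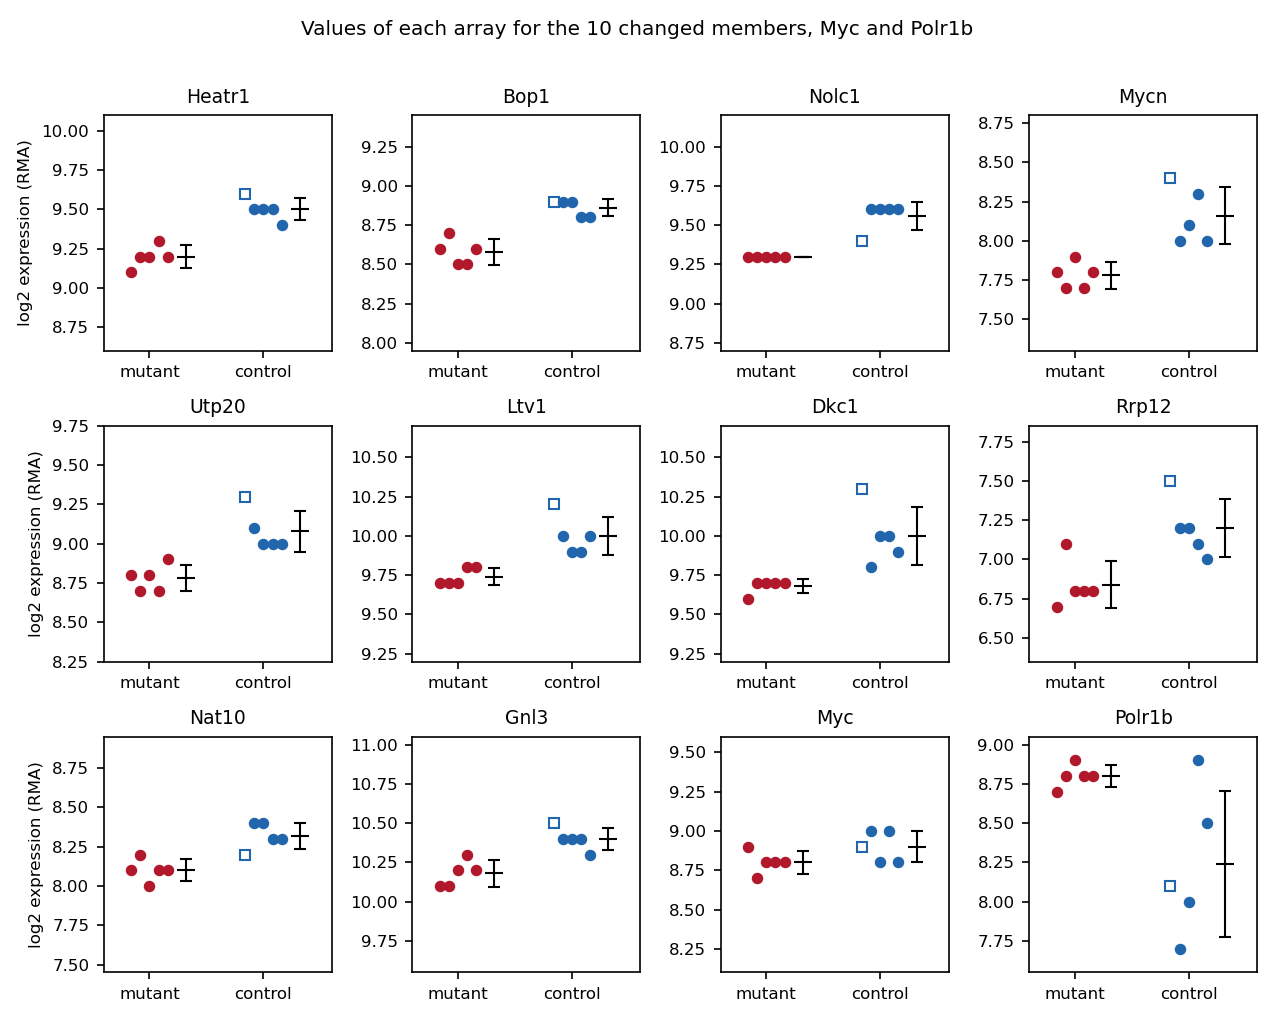
Log2 expression of each array for the 10 changed members, Myc and Polr1b, with mutant arrays in red at the left and control arrays in blue at the right of each panel; the open square is control replicate 1, and the bars are mean ± SD (n = 5). Each panel spans the same 1.5 units, the mutant SD of Nolc1 is 0 at the rounding of the table, and Polr1b is spread from 7.7 to 8.9 in control arrays.

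Small subunit factors held 5 of the 10 decreases. All 12 had a negative difference, with a median of -0.20, and 7 were not called. Heatr1, a large scaffold of the processing complex that forms on the precursor RNA, had 9.1, 9.2, 9.2, 9.3 and 9.2 in mutant arrays, against 9.6, 9.5, 9.5, 9.5 and 9.4 in control arrays. The groups do not overlap. The difference was -0.30 (SE 0.06, 1.23-fold lower; adjusted p = 0.0125), the smallest p among the 38. The dimmer Heatr1 probe sets gave 0.40 and 0.06, neither called, and the mean of all 3 probe sets gave 0.053 (adjusted p = 0.762).

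Utp20, another scaffold of that complex, had 8.8, 8.7, 8.8, 8.7 and 8.9 in mutant arrays, against 9.3, 9.1, 9.0, 9.0 and 9.0 in control arrays (difference -0.30, SE 0.07, adjusted p = 0.0297). Ltv1, a late factor released from the small subunit near its export, had 9.7, 9.7, 9.7, 9.8 and 9.8 in mutant arrays, against 10.2, 10, 9.9, 9.9 and 10 in control arrays (difference -0.26, SE 0.07, adjusted p = 0.0362). In both, every mutant array was below every control array, and the calls were lost without 5 and 7 of the 10 arrays in turn. Rrp12, which acts in the export of subunits, had 6.7, 7.1, 6.8, 6.8 and 6.8 in mutant arrays, against 7.5, 7.2, 7.2, 7.1 and 7.0 in control arrays. Mutant replicate 2 reached the control range, and the difference was -0.36 (SE 0.10, adjusted p = 0.0457). Nat10, which acetylates cytidines of ribosomal and transfer RNA, had 8.1, 8.2, 8.0, 8.1 and 8.1 in mutant arrays, against 8.2, 8.4, 8.4, 8.3 and 8.3 in control arrays. The groups meet at 8.2, in control replicate 1, and the difference was -0.22 (SE 0.06, adjusted p = 0.0457); a dimmer probe set gave 0.08 and the mean of both -0.07 (adjusted p = 0.483). The calls of Rrp12 and Nat10 were lost without 8 and 9 of the 10 arrays in turn.

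The promoters of the members were read for CACGTG, the E-box bound by Myc with Max. The letters read the same on both strands. RefSeq promoters (GRCm38.p6, 250 bases before to 50 after the start of transcription) were matched for 32 of 38 members, and 8 of these (25%) held CACGTG, against 10.2% of 14453 genes on the array and 8.09% of all 27025 genes in the promoter table. The share was 2 of 8 among changed members and 6 of 24 among those not called. It was 8 of 31 for the further small subunit genes, 7 of 41 for the large subunit genes, 4 of 39 for the ribosomal proteins and 8 of 17 for the Myc targets outside the nucleolus. It was 0 of 8 for the other RNA polymerase I and Treacher Collins genes, 0 of 6 for snoRNP assembly, 1 of 11 for the exosome, 2 of 28 for the cell cycle and 2 of 8 for the p53 response. A match describes the letters of the window and does not show binding.

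The 2 changed members with the letters are shown so that the motif can be seen in its place. A link of the motif to the decrease was not tested. CACGTG is in capitals, and each sequence runs 5′ to 3′ along the gene. In Utp20 (chr10:88826765-88827064, minus strand) the motif begins at position 38 counted from the start of transcription as 1, and in Ltv1 (chr10:13193088-13193387, minus strand) at position 29.
Utp20: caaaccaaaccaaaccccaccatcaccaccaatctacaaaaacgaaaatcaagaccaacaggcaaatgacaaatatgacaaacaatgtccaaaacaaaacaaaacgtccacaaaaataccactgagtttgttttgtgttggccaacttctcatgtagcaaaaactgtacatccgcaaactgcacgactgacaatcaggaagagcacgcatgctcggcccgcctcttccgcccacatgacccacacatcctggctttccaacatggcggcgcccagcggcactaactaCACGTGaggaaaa
Ltv1: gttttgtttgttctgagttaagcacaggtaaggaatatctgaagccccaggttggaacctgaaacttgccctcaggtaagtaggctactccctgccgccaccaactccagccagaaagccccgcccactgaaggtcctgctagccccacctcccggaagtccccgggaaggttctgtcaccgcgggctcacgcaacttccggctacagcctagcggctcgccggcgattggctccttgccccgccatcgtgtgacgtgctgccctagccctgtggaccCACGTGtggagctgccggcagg
In both the motif lies just inside the transcript, as it did in Mybbp1a, Pes1, Tsr1 and Wdr43, where it began at positions 41, 3, 25 and 18. Nop2 and Rrn3 held it before the start, at -60 in Nop2 and at -215 and -48 in Rrn3. The Mycn, Heatr1, Nolc1, Dkc1, Nat10 and Gnl3 windows did not hold these letters.

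The other small subunit members had smaller or more variable differences. Bysl, which encodes bystin of the precursor subunit, had 8.5, 8.8, 8.6, 8.8 and 8.7 in mutant arrays, against 9.0, 8.9, 8.9, 8.9 and 8.9 in control arrays. These do not overlap, yet the difference of -0.24 had an adjusted p of 0.0508. Nob1, the nuclease of the last cut of small subunit RNA, differed by -0.18, Nop14 by -0.16, Wdr75 by -0.16, Wdr43 by -0.14 and Tsr1 by -0.14. Rrp9, a protein of the snoRNP that starts the processing complex, was closest to 0, at -0.08 (95% confidence interval -0.21 to 0.05).

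Large subunit factors showed the same direction in 7 of 8, with 2 called. Bop1, Pes1 and Wdr12 form a complex needed to process large subunit RNA. Bop1 had 8.6, 8.7, 8.5, 8.5 and 8.6 in mutant arrays, against 8.9, 8.9, 8.9, 8.8 and 8.8 in control arrays. The groups do not overlap, with a difference of -0.28 (SE 0.06, 1.21-fold lower; adjusted p = 0.0168), while a dimmer probe set gave 0.16 and the mean of both gave -0.06, which was not called (adjusted p = 0.678). Its partners differed by -0.20 for Pes1 (adjusted p = 0.0735) and -0.16 for Wdr12 (adjusted p = 0.267), and were not called. Gnl3, the nucleolar GTPase nucleostemin, known from stem cells and dividing cells, had 10.1, 10.1, 10.2, 10.3 and 10.2 in mutant arrays, against 10.5, 10.4, 10.4, 10.4 and 10.3 in control arrays. Both groups hold an array at 10.3, and the difference of -0.22 (SE 0.06, adjusted p = 0.0457) was not called without 9 of the 10 arrays in turn.

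Rrs1, which helps bring a small RNA of the large subunit into place, differed by -0.18, and Nop2, an RNA methyltransferase used as a proliferation antigen, by -0.16; neither was called. The values of Rrp1b and Nop16 turned on control replicate 1. Rrp1b had 9.0, 9.0, 9.1, 9.1 and 9.1 in mutant arrays, against 8.3, 9.3, 9.2, 9.4 and 9.3 in control arrays, a difference of -0.04. Without the array at 8.3 the difference was -0.24 (adjusted p = 0.0257), although its other probe sets gave -0.18 and -0.12 with all arrays. Nop16 had 9.2, 9.3, 9.1, 9.2 and 9.0 in mutant arrays, against 8.7, 9.2, 9.1, 9.4 and 9.3 in control arrays, and its difference of 0.02 was -0.09 without control replicate 1. Its dimmer probe set gave -0.30 (adjusted p = 0.0628 over all probe sets).

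The remaining members are nucleolar proteins with wider roles. Mybbp1a, which can repress transcription of ribosomal DNA, differed by -0.08 (95% confidence interval -0.22 to 0.06). Ddx21, an RNA helicase that joins transcription to processing, had 9.5, 9.2, 9.4, 9.4 and 9.5 in mutant arrays, against 9.8, 9.5, 9.3, 9.6 and 9.6 in control arrays, a difference of -0.16 that was not called. Its dimmer probe set had 7.5, 7.7, 7.5, 7.9 and 7.6 in mutant arrays, against 8.1, 8.0, 8.0, 8.0 and 8.1 in control arrays. There the groups do not overlap, and the probe set fell by 0.40 in the fit over all probe sets (adjusted p = 0.0202). In that fit 8 of the 75 probe sets of members (10.7%) were called, all lower, against 3.41% of all probe sets called lower. Among 25 members with more than 1 probe set, 7 had one in the opposite direction, none of them called.

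The members were also summed up array by array. The median deviation of the 38 from each gene's mean over 10 arrays lay between -0.10 and -0.04 in mutant arrays and between 0.045 and 0.21 in control arrays. The top of that range is control replicate 1, and the other controls reached 0.115. Control replicate 1 was the single highest of the 10 arrays for 21 members and the single lowest for 4. It stood more than 0.1 above the mean of the other controls for 21 members and more than 0.1 below it for 10, so its deviation was not in 1 direction.

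**Figure D3:**
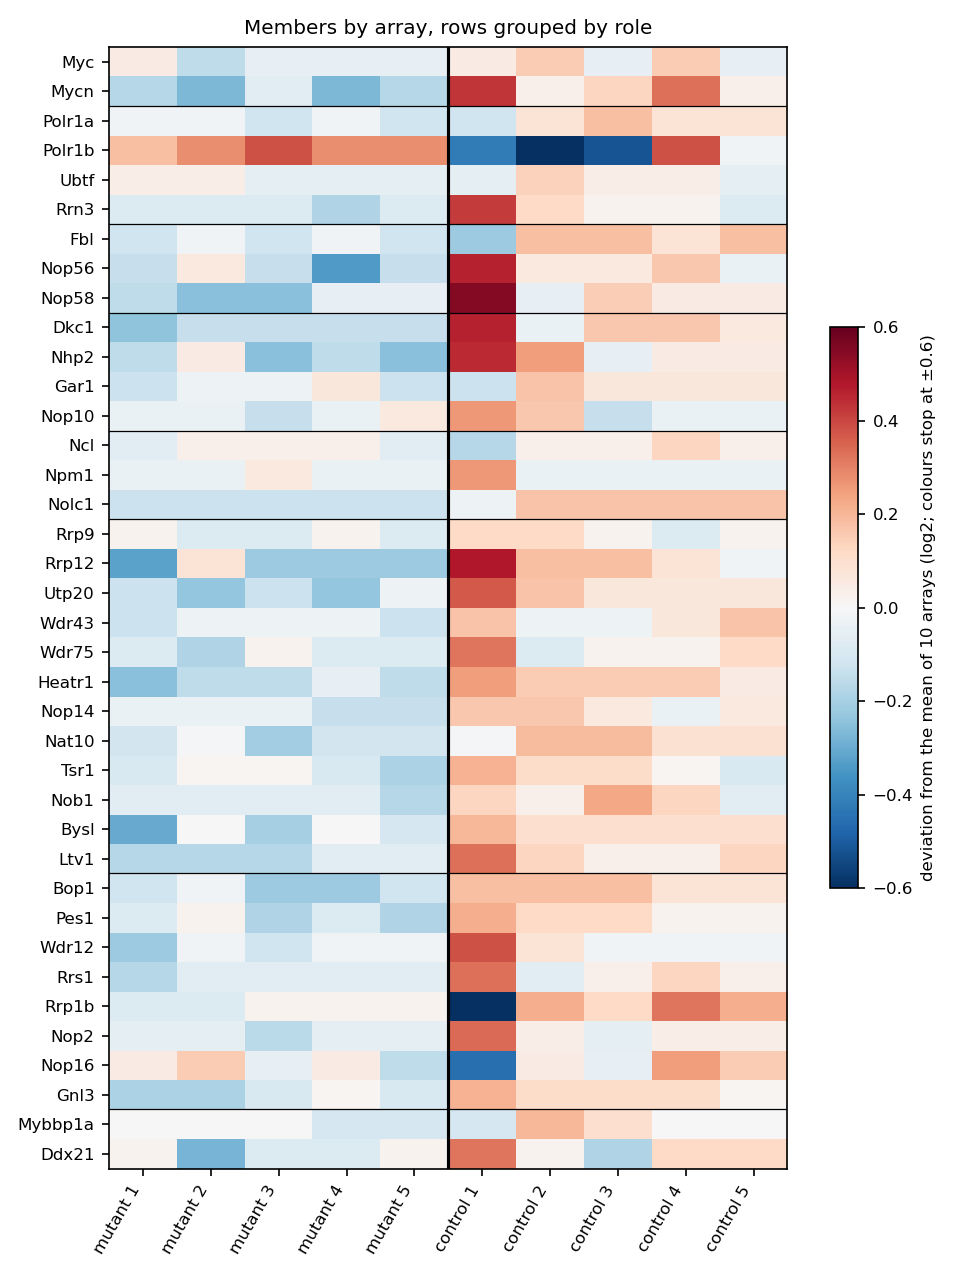
Deviation of each array from the gene's mean over 10 arrays (log2; red above, blue below) for the 38 members in rows, mutant arrays in the 5 columns at the left and control arrays in the 5 at the right. Most mutant cells are blue and most control cells red, control 1 holds the highest deviations (up to 0.55 in Nop58) and Polr1b in control 2 the lowest.

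Other genes of ribosome assembly, from lists written with earlier results of these data known, were lower in part as well. Of 40 further small subunit genes, 9 (22.5%) were lower and none higher, with a median of -0.18. Tbl3, of the processing complex, had 7.8, 8.0, 7.7, 7.7 and 7.9 in mutant arrays, against 8.4, 8.2, 8.2, 8.2 and 8.2 in control arrays (difference -0.42, adjusted p = 0.00761), while its other probe sets gave -0.02 and 0.02. Bud23, a methyltransferase of small subunit RNA, differed by -0.28 (adjusted p = 0.0129), and Dcaf13 by -0.38 (adjusted p = 0.0166). Of 47 further large subunit genes, 10 (21.3%) were lower and none higher, with a median of -0.18. Rrp15 had 8.9 in all 5 mutant arrays, against 9.3, 9.2, 9.2, 9.1 and 9.2 in control arrays (difference -0.30, adjusted p = 0.00755). Rbm28 and the GTPase Lsg1 differed by -0.38 and -0.30 (adjusted p = 0.0103 and 0.0231). The Lsg1 groups meet at 8.4, and leaving out 6 of the 10 arrays, each alone, ended its call. Without any 1 of the mutant arrays or of control replicates 2 to 5, 4 to 7 small subunit and 2 to 8 large subunit genes were lower. Without control replicate 1 these counts were 12 and 12.

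The nuclear exosome, which trims the ends of ribosomal RNA precursors, had 4 of 13 genes lower, Exosc8, Exosc1, Exosc5 and Exosc7, and all 13 negative, with a median of -0.22. The exosome count was 1 to 5 without any 1 array. Exosc8, a ring subunit, had 10.2, 10.2, 10.2, 10.3 and 10.2 in mutant arrays, against 10.7, 10.6, 10.6, 10.5 and 10.6 in control arrays (difference -0.38, SE 0.06, adjusted p = 0.00282). No array of the groups overlaps, although its other probe set gave 0.24.

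The genes of the ribosomal proteins themselves were level. Of 79 written, 44 had a row of their own, and none was called by limma, with 0 at an unadjusted p under 0.05. Their median difference was 0.00, and for 39 of 44 the 95% confidence interval lay within 1.2-fold in both directions. Rps25 had the smallest p (-0.28, adjusted p = 0.231). These are among the brightest genes, averaging 12.51 to 12.55 in mutant and 12.52 to 12.57 in control arrays on the log2 scale. Many have near-identical pseudogene copies, which a probe set may not tell apart. Of 19 genes known as Myc targets outside the nucleolus, none was called by limma, 9 had an unadjusted p under 0.05, and 17 were negative, with a median of -0.14. An unadjusted p under 0.05 in either direction was reached by 25.2% of all genes and 30.2% of the brighter 60%. Gart, an enzyme of purine synthesis, had the smallest p (-0.22, adjusted p = 0.0554).

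**Figure D4:**
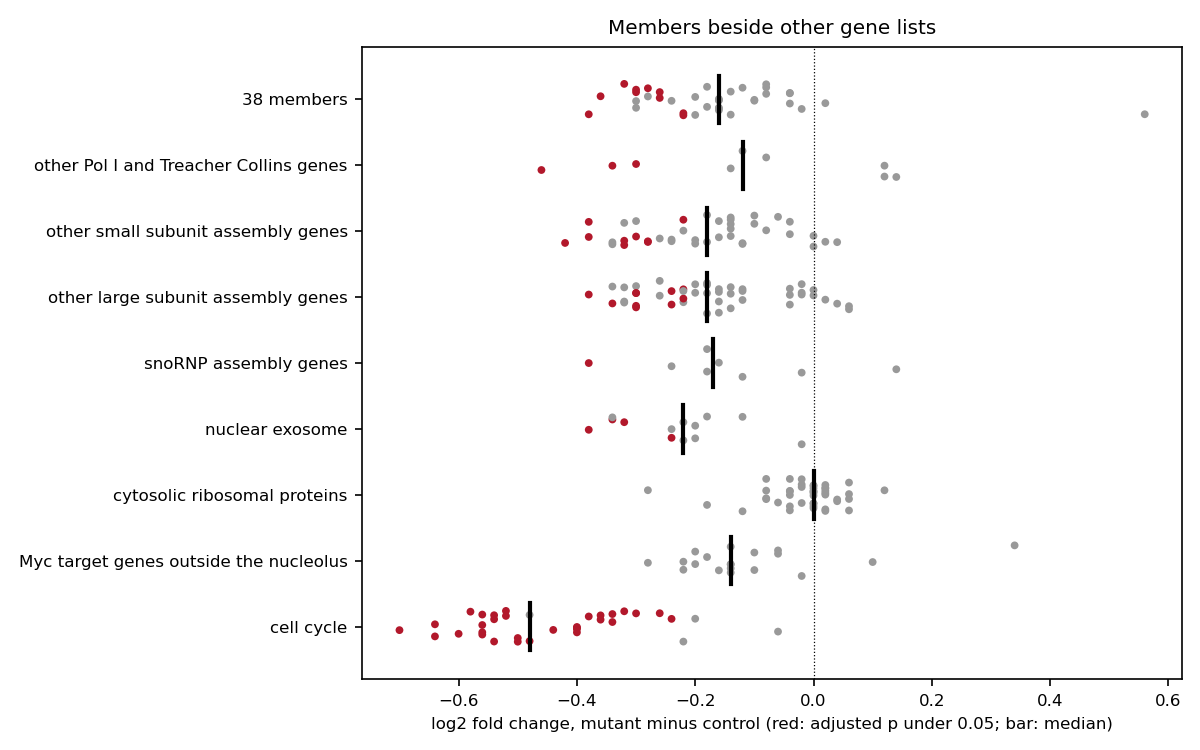
Log2 difference of each gene, mutant minus control, in the 38 members and 8 other lists, with changed genes in red and the median as a bar. Medians of the assembly lists lie between -0.22 and -0.12, that of the ribosomal proteins at 0.00 and that of the cell cycle list at -0.48.

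Several other gene groups moved with the genotype beside these genes, and their part in the result was not tested. Of 35 cell cycle genes, 31 were lower and none higher, with a median of -0.48. Bub1b, Birc5 and Cenpa, genes of mitosis, led by p (-0.54, -0.56 and -0.58). The other probe sets of Cenpa gave only -0.10 and -0.08, those of Bub1b gave -0.66 and -0.32, and Birc5 has 1 probe set. Of 12 skeletal muscle markers 9 were lower, and 3 to 10 without any 1 array (Myf5 -1.86, Actn2 -1.98 and Tnnt1 -1.74 by smallest p), at a mean level of 6.03 to 8.33 in mutant and 8.11 to 9.48 in control arrays, and of 8 multiciliated cell markers 6 were higher (Ak7 1.26, Dynlrb2 1.46 and Tmem212 1.2 by smallest p), at 7.462 to 7.675 in mutant and 6.19 to 7.19 in control arrays. Epithelial markers had no call among 10 (smallest p for Krt8, 0.56; 5 higher without control replicate 1), at 10.38 to 10.71 in mutant and 10.18 to 10.83 in control arrays. None of 8 macrophage and 5 erythroid markers was called by limma (1 and 3 at an unadjusted p under 0.05, and 4 for the epithelial list). C1qa at 0.38 and Hba-x at -0.64 had the smallest p of those lists, and 1 of 8 endothelial markers, Cldn5, was lower. A list of 12 genes covered the p53 response, which disturbed ribosome assembly can set off. Cdkn1a was higher by 0.42 and Eda2r fell by 0.66 (8.33% of the list each), and the median was 0.07. Of all genes, 5.36% were called lower and 2.9% higher. The Cdkn1a groups meet at 10.4, and leaving out 6 of the 10 arrays, each alone, ended its call. Eda2r was dim, at 4.0 to 4.2 in mutant and 4.5 to 5.4 in control arrays, where array medians were 6.4 to 6.5. Its difference was -0.50 without control replicate 1, and it was not called without mutant replicate 3.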

How the data were processed

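Affymetrix expression arrays were made from secondary palate, 5 mutant and 5 control samples grouped by their titles. The deposited values are log2 expression from RMA, which corrects background, normalizes by quantiles and summarises probes, as named without a version in the submitters' processing notes. The authors' table has 1 decimal, so differences near 0.1 are at its limit. The highest share of identical values between 2 arrays was 26.8%, so no array was a duplicate, and no value column was left out. No scan date or batch was known here, and the number of arrays limits the precision.

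Of 45101 probe sets, 34958 had 1 gene symbol, 932 several and 9211 none. Symbols were brought up to date from RefSeq (GRCm38.p6) by Entrez ID, with 34754 found, giving 18194 genes, each read by its brightest probe set. Probe sets ending in _s_at or _x_at (Fbl, Gar1, Nhp2, Nop56, Rrs1, Tsr1, Wdr43, Polr1d and Polr1e here) can take up related transcripts. Differences were tested with limma 3.58.1 in R 4.3.3 (lmFit, eBayes), two-sided, with neither filter, block nor covariate; p-values were adjusted by Benjamini-Hochberg over 18194 genes; the fit was first tested on simulated arrays. Errors are SD over 5 arrays or SE of the fit. All 38 members were named. From each of 17 other lists (347 entries, 49 without a row) up to 3 changed genes by p, or the 1 with the smallest p, were named. Max, Polr1d, Exosc7 and Msx1 lie outside this rule and were picked with their values known. The fit was repeated with probe sets averaged per gene, the brighter 60% of genes, a trended robust fit, repeated quantile normalization, array weights, Eif2s3y as a covariate, the replicate block and each array left out. Members and lists were chosen with earlier results of these data known.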

Additional observations from a re-analysis of the deposited data

Results flagged for a closer look

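Members and the genes named by rule from the lists were searched for values of 1 array that stood apart from the other 4 of its group. The limit was a gap above 0.71 of the group's range (Dixon's test for 5 samples). Such values were found 22 times in 144 groups. Chance alone gives about 1 in 20, and steps of 0.1 make the test pass where 4 arrays tie. Tgfbr2, Eif2s3y, Max, Polr1d, Exosc7 and Msx1 were not in these groups. Eif2s3y had 5.1 in mutant replicate 5, against 9.0 to 9.3 in the other mutant arrays. Control replicate 1 was low for Rrp1b (8.3), Fbl (11.4) and Nolc1 (9.4), and high for Npm1 (13.4), Wdr12 (9.3), Nop2 (9.1), Bysl (9.0), Polr1e (8.5), Tbl3 (8.4) and Eda2r (5.4). Mutant values that stood apart were those of Rrp12 (7.1, replicate 2), Actn2 (7.8, replicate 4), Gart (9.4, replicate 2), Npm1 (13.2) and Bud23 (9.2, both replicate 3), Exosc8 (10.3) and Rrn3 (8.3, both replicate 4), Dkc1 (9.6) and Rrs1 (10, both replicate 1), Nob1 (8.9, replicate 5) and Nop2 (8.6, replicate 3). Rps25 was low in control replicate 2 (8.9).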

How the results depend on the processing

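The members' median difference stayed negative under every alternative run, between -0.219 (Eif2s3y as a covariate) and -0.135. The count of members lower, 10 as reported, was 4 after quantile normalization again and 3 with Eif2s3y as a covariate. It was 8 to 12 with the mean of all probe sets, array weights, a trended robust fit or the brighter 60% of genes. With the mean of all probe sets 5 of the 10 were still called, and Nop56 (-0.33), Bysl (-0.25) and Ddx21 (-0.28) joined them. Calls over all genes, in either direction, also moved from the 1503 of the main fit. They were 1170 after quantile normalization again, 1041 with Eif2s3y, 1390 with the mean of all probe sets and 2240 with array weights. The trended robust fit gave 1560, and the fit of the brighter 60%, over 10922 genes, gave 1463. Leaving out each array in turn gave 4 to 10 members lower and 0 to 1 higher (Polr1b, without control replicate 4), and 643 to 1798 changed genes of all. The labels do not say whether the replicate numbers of the titles pair the arrays. Deviations of same-numbered arrays correlated at -0.10 to 0.11, and 0 of 10 arrays correlated best with its own number. Correlations of so few arrays cannot decide whether they were paired. With the replicate number as a block, limma called 532 genes and 0 members, with 18 members lower at an unadjusted p under 0.05; the block leaves 4 residual degrees of freedom in place of 8. Signs turned for Ncl (0.02), Heatr1 (0.053) and Nop16 (-0.14) with the mean of all probe sets, for Npm1 (0.008) and Nop16 (-0.08) with array weights, for Rrp1b (0.12) with Eif2s3y, and for Tgfbr2 (-0.013) with the mean of all probe sets. Leaving out 1 array at a time gave -0.065 to 0.01 for Ncl, -0.06 to 0.02 for Npm1, -0.24 to 0.035 for Rrp1b and -0.09 to 0.085 for Nop16. The cause of these changes was not tested.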
